A study of Mus musculus with 16 samples.

Results

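Of the 38276 stretches of the mouse genome that carried H3K27ac in untreated bone marrow-derived macrophages (BMDMs), 6513 (17.0%, 95% exact interval 16.6 to 17.4) were listed in untreated cells and in none of the 3 treated conditions. They are called here regions found in Control alone. They were obtained by merging the peaks of the 4 deposited lists, Control, IFNγ, PJ34 and IFNγ+PJ34, into 55218 regions wherever peaks shared at least 1 bp. A region was kept when it held a Control peak and no peak of the other lists, so the members were chosen by the presence and absence of peaks, and that absence is not a finding. A region missing from a list had no peak called there, which is not the same as no acetylation.

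The cells were primary macrophages grown from the marrow of C57Bl6 mice of 8 to 12 weeks of age. Control cells were untreated, IFNγ cells received 100 ng/mL interferon gamma for 1 h, PJ34 cells received 20 µM of the PARP inhibitor PJ34, and IFNγ+PJ34 cells received PJ34 for 1 h before IFNγ. The labels name 2 ChIP and 2 input replicates per condition, 8 ChIP and 8 input samples in all. Each condition has 1 deposited peak list, made from both replicates, so no value here has a replicate error and no test between conditions was possible. Intervals are exact 95% intervals that cover counting error only, and neighbouring regions are not independent.

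The lists were similar in length, with 43533 peaks for Control and 40708, 44090 and 42960 for IFNγ, PJ34 and IFNγ+PJ34. Control peaks covered the most sequence, 52.6 Mb against 42.5, 47.9 and 44.1 Mb. The depth of the libraries is unknown from the lists. The part that depth, or the threshold of the peak caller, had in a region being listed once was not tested. All 8 macrophage markers examined, Csf1r, Adgre1, Itgam, Cd68, Mertk, Fcgr1, Lyz2 and Spi1, had a Control peak within 1 kb of a start site. Of the other lineages' markers, 0 of 8 T cell genes, 1 of 7 B cell genes (Ms4a1), 2 of 8 granulocyte genes (Camp and Cebpe), 2 of 10 stromal and endothelial genes (Pecam1 and Kdr) and 1 of 8 erythroid and mast cell genes (Klf1) had one.

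H3K27ac is an acetylation of a lysine in the tail of histone H3 that marks active promoters and active enhancers. In macrophages, enhancers are set up by lineage factors such as PU.1 and C/EBP together with AP-1. IFNγ acts on gene expression through DNA elements called GAS and ISRE, which are bound by factors of interferon signalling. PJ34 inhibits poly(ADP-ribose) polymerases, nuclear enzymes that modify proteins, histones among them, with ADP-ribose.

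The members with the highest −log10 p are shown first. With percentiles of 67.4 to 73.6 in the Control list they are not typical of the members. The 150 bases around the summit are printed for the 6 members with the highest −log10 p, and then for the highest member holding a PU.1, an AP-1 and an ISRE motif (the last was added after its values were seen). Sequences are from GRCm38, the build also named mm10, forward strand. Capitals mark matches, on either strand, to the 6 motifs searched: PU.1 (GAGGAAGT), AP-1 (TGANTCA), C/EBP (TTGCNNAA), GAS (TTCNNNGAA), ISRE (GAAANNGAA) and NF-κB (GGGANTTTC).
Slco2b1 intron, chr7:99674626-99674775: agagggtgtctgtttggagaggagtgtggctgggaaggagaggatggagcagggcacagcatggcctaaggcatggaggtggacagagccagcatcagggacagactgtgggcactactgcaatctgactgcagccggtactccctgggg
Cebpa upstream, chr7:35099124-35099273: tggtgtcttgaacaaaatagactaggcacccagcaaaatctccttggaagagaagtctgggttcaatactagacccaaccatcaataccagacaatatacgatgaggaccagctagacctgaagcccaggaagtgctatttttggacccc
Rpn1 downstream, chr6:88108482-88108631: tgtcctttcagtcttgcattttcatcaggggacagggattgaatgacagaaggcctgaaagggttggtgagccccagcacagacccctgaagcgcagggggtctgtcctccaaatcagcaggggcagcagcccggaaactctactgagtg
Fosb upstream, chr7:19316073-19316222: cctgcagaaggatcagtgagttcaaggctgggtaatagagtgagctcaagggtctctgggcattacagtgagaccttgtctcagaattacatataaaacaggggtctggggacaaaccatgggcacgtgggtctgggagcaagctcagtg
Snx29 intron, chr16:11461891-11462040: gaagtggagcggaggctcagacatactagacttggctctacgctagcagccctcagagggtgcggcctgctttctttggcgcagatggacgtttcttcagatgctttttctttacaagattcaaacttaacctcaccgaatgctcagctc
Ajm1 side, in Rabl6, chr2:25588379-25588528: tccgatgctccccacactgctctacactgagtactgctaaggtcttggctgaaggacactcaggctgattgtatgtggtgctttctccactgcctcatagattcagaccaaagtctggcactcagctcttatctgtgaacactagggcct
Inpp5a side, PU.1, chr7:139434429-139434578: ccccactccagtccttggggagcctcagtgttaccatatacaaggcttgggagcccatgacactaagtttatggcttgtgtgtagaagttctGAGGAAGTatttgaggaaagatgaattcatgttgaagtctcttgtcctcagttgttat
Engase side, C/EBP and AP-1, chr11:118473634-118473783: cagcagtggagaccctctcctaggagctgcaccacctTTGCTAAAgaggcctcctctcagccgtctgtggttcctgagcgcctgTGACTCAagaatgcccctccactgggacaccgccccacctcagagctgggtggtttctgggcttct
Krt8 side, ISRE, chr15:101981208-101981357: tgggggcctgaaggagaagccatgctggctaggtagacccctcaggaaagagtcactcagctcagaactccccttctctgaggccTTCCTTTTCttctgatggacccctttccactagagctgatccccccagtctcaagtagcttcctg

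None of the first 6 sequences holds a capital, so none of the 6 motifs matched there in that window. Among all members away from promoters, 1474 of 6128 (24.1%, 23.0 to 25.1) held at least 1 of the motifs in the 200 bp around the summit. The same share was 26.4% (25.6 to 27.2) of 11514 such regions found in all 4 lists.

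The members were weak and narrow peaks of the Control list. Their fold enrichment over the local background, as the peak caller gave it, had a median of 3.53 (quartiles 3.04 and 4.22, highest 15.5), and their width a median of 357 bp (quartiles 281 and 482). In the 21468 regions found in all 4 lists the medians were 14.7 for the Control peaks and 1825 bp for the region. That width spans the merged peaks of 4 lists, while a member holds Control peaks only, so the 2 widths are not alike. Over all Control peaks the median width was 732 bp. Ranked among all Control peaks by −log10 p, from 0 for the weakest to 100, members had a median percentile of 18.2, against 27.5 for Control regions shared with 1 other list, 38.3 with 2 and 74.6 with all. In their own lists, regions found in IFNγ alone and PJ34 alone had like ranks, 17.7 and 15.0, and those in IFNγ+PJ34 alone a higher one, 25.3.

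The share of Control regions found in Control alone went from 56.4% in the first, weakest decile of the list to 24.2% in the fourth, 5.34% in the sixth and 1.07% in the seventh decile. A single member, in Slco2b1, lay in the eighth decile, and the top 2 deciles held 0 of 4234 and 0 of 4312 regions, with exact upper bounds of 0.0871% and 0.0855%. Of the members, 96.2% were at or below the 50th percentile. At or below it 35.1% of Control regions were found in Control alone, and above it 249 of 20422 (1.22%). The other lists had 7.10% of 31675 regions found in IFNγ alone, 13.7% of 35991 in PJ34 alone and 16.8% of 34184 in IFNγ+PJ34 alone. Of the members, 241 (3.70%) had a q-value above 0.01, against 2.36% of Control regions shared with 1 other list and 0.186% with all. In their own lists this share was 11.5% in IFNγ alone, 7.46% in PJ34 alone and 10.2% in IFNγ+PJ34 alone.

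**Figure D1:**
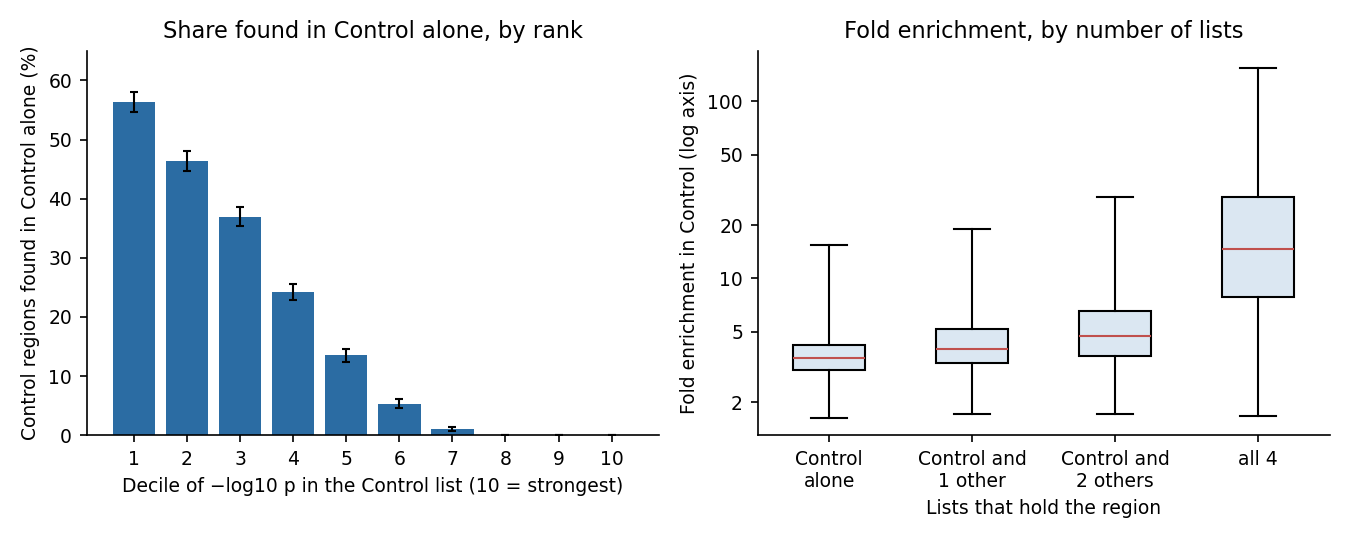
Left, share (%) of Control regions found in Control alone in each decile of −log10 p, with exact 95% intervals; it goes from 56.4% in decile 1 to 0 in deciles 9 and 10. Right, fold enrichment of the Control peak (log axis) by the number of lists holding the region; boxes are quartiles, red lines medians (3.53 for Control alone, 14.7 for all 4) and whiskers the full range.

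The 12 strongest members were led by a 2685 bp region in an intron of Slco2b1, a solute carrier that transports organic anions. It lies at chr7:99673617-99676301, 21.1 kb from the nearest start site, with a fold enrichment of 15.5 and a percentile of 73.6. The nearest peaks of IFNγ, PJ34 and IFNγ+PJ34 were 34.7, 105 and 123 kb away, so this region stood apart in every other list. The second, chr7:35099003-35099783, lies 20.1 kb from the start of Cebpa, the gene of the myeloid factor C/EBPα, with a fold enrichment of 12.9. Beside it, an IFNγ+PJ34 peak lay 0.111 kb away, while the IFNγ and PJ34 lists had none within 17.3 kb.

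The other 10 lay near Rpn1 (fold enrichment 12.7), Fosb (12.0), Snx29 (10.9), Ajm1 (12.5), Itgb5 (10.9), Fabp6 (10.5), Acta1 (10.3), Sbk1 (11.6), Mfhas1 (11.6) and Ppp2r5a (11.2). Fosb encodes a subunit of AP-1, and Itgb5 an integrin beta chain. None of the 12 was at a promoter: 7 lay in introns and 5 between genes. The Fabp6, Mfhas1, Sbk1 and Ajm1 regions, like that of Slco2b1, had no peak of any other list within 10 kb, while the Snx29 region lay within 0.2 kb of a peak of each of the other lists.

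The widest member, 2971 bp at chr7:19693505-19696475, has its summit between Apoc1 and Apoe, 1.21 kb from the nearest Apoc1 start site, reaches into the end of Apoe, and had a fold enrichment of 10.1. Next in width were regions in Slco2b1, in an intron of Nfatc2 (2606 bp, 5.73) and in an exon of Mgll (2386 bp, 5.98). Nfatc2 encodes a calcium-regulated transcription factor, and Mgll an enzyme that breaks down monoacylglycerols. Among the strongest members at promoters were those of Fam53b (fold enrichment 7.96), Zfp467 (7.15), Fam234a (6.63) and Gfi1 (7.68), the last a transcriptional repressor of blood cell development.

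Members were seldom at promoters. The summit was within 1 kb of a protein-coding start site for 385 members (5.91%, 5.35 to 6.51), in an exon for 3.87%, in an intron for 50.9% and between genes for 39.3%. Regions in all 4 lists were at promoters in 46.4% (45.7 to 47.0), and Control regions shared with 1 or 2 other lists in 7.41% and 9.74%. The median distance to a start site was 18.9 kb for members and 3.04 kb for regions in all 4 lists. For Control regions shared with 1 or 2 other lists it was 21.1 and 19.9 kb. For regions in IFNγ alone, PJ34 alone and IFNγ+PJ34 alone it was 23.8, 19.1 and 24.9 kb, so the distance was not particular to the members.

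The lower promoter share than in shared regions was also present at equal rank in the Control list. In the fifth decile 5.04% (3.29 to 7.35) of members were at promoters against 15.0% (13.7 to 16.2) of Control regions also in another list, and in the sixth 3.88% (1.69 to 7.51) against 18.3% (17.0 to 19.6). In the weakest decile the shares were 4.91% (3.99 to 5.98) and 7.56% (6.27 to 9.03). The promoter share was near that of regions found in PJ34 alone (5.78%, 5.14 to 6.47), and above those in IFNγ alone (2.49%, 1.89 to 3.22) and IFNγ+PJ34 alone (3.61%, 3.15 to 4.13).

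**Figure D2:**
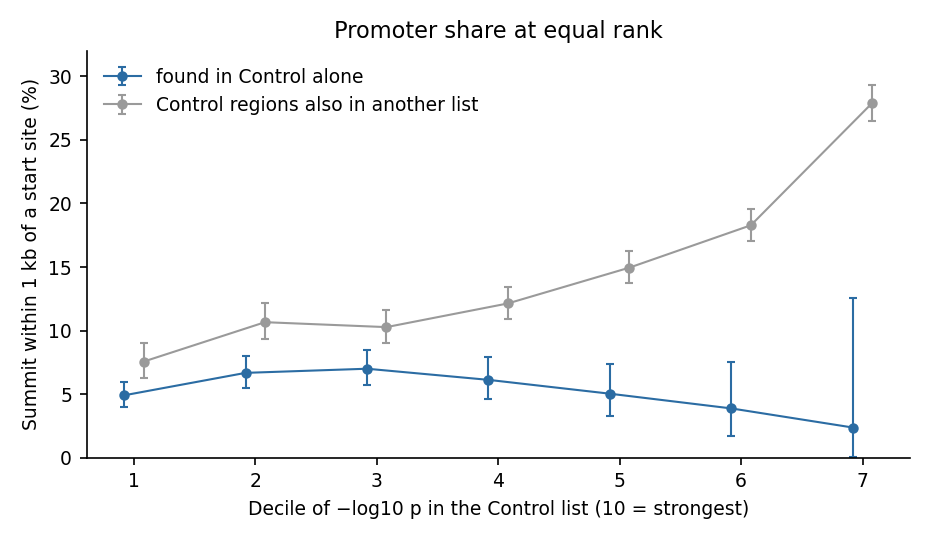
Share (%) of regions with the summit within 1 kb of a protein-coding start site, by decile of −log10 p in the Control list, for regions found in Control alone (blue) and Control regions also in another list (grey), with exact 95% intervals. The grey share goes from 7.56% to 27.9% over deciles 1 to 7, and the blue share is 4.91% in decile 1 and 2.38% in decile 7.

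The median GC content of the members was 46.4%, near that of Control regions shared with 1 other list (45.7%) or 2 (45.5%) and between that of regions in all 4 lists (48.8%) and those in IFNγ alone (43.4%), PJ34 alone (44.7%) or IFNγ+PJ34 alone (43.6%). CpG dinucleotides were at a median of 9.62 per kb, against 18.98 per kb in all 4 lists. This was near the medians of Control regions shared with 1 other list (9.54) or 2 (9.74). It was above those in IFNγ alone (7.69), PJ34 alone (8.13) and IFNγ+PJ34 alone (7.72). At least 50% of the bases were repeat-masked in 750 members (11.5%, 10.8 to 12.3), against 2.14% of the regions in all 4 lists, 14.5% in IFNγ alone, 13.5% in PJ34 alone and 10.8% in IFNγ+PJ34 alone. Across the autosomes the share of Control regions found in Control alone ran from 14.5% on chromosome 19 to 19.3% on chromosome 6.

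Many members lay beside acetylated sequence that other conditions shared. The nearest peak of another list was at a median distance of 1.16 kb, within 300 bp for 1977 members (30.4%), within 1 kb for 3124 (48.0%, 46.7 to 49.2) and over 10 kb away for 1320 (20.3%, 19.3 to 21.3). By list the median distances were 3.78 kb to IFNγ, 2.66 kb to PJ34 and 3.01 kb to IFNγ+PJ34. A Control region shared with another list lay within 1 kb of 2905 members (44.6%, 43.4 to 45.8). Of regions found in PJ34 alone, 56.6% (55.2 to 58.0) lay within 1 kb of another list's peak, and of those in IFNγ+PJ34 alone 35.1% (33.9 to 36.4).

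At the threshold of the rule, 475 members had a peak of another list at 100 bp or less, with a median fold enrichment of 3.47. Just outside it, 135 other Control regions were shared through an overlap of 100 bp or less, with a median of 3.18. Members over 10 kb from other lists had a median fold enrichment of 3.72 and a median percentile of 21.4, against 3.45 and 16.4 for those within 1 kb.

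**Figure D3:**
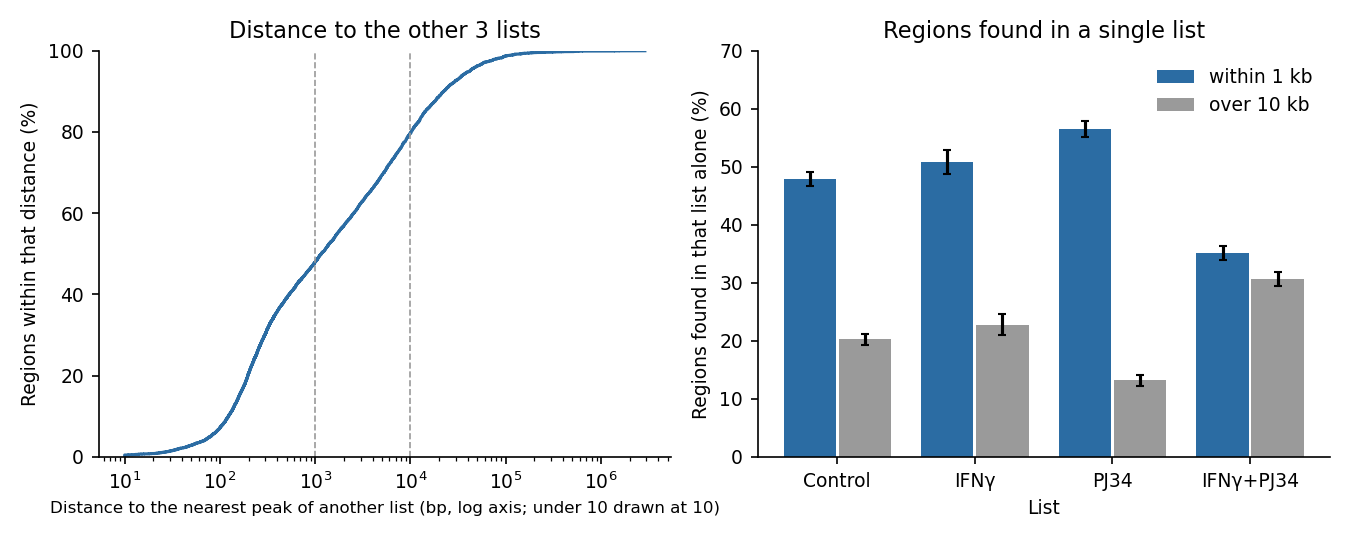
Left, cumulative share (%) of the 6513 regions by distance in bp (log axis) to the nearest peak of another list, with dashed lines at 1 kb and 10 kb; 48.0% lie within 1 kb. Right, for regions found in a single list, the share within 1 kb (blue) and over 10 kb (grey) of a peak of another list, with exact 95% intervals; the blue bars are 48.0% for Control, 50.8% for IFNγ, 56.6% for PJ34 and 35.1% for IFNγ+PJ34.

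The shared regions beside members stood higher in the Control list than in the others. This comparison was chosen after values had been seen and is a description only, since having a member nearby selects places where the Control list passed the peak caller and the others did not, and the regions come from the same libraries. Of the 21468 regions in all 4 lists, 1698 had a member within 1 kb. Their median percentile was 75.9 in the Control list, and in the IFNγ, PJ34 and IFNγ+PJ34 lists it was 64.1, 69.3 and 67.3. In the 19770 without a member nearby the medians were 74.4, 71.9, 74.5 and 72.5. Control had the highest percentile of the 4 lists in 48.6% (46.2 to 51.1) of the former and 27.3% (26.7 to 27.9) of the latter.

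Members also lay in runs. With no region of another list in between, 2539 members (39.0%) fell into 1061 runs of 2 or more, and 89 runs held at least 4. Members made up 11.8% of all merged regions, so some of them adjoin in any case. Runs of other kinds of region were not counted, so these counts have no reference and show no clustering particular to the members. The longest run, 9 members over 87.9 kb at chr17:75436480-75524362, lay in Rasgrp3, an exchange factor for Ras proteins, with fold enrichments up to 7.32. Another, 7 members over 30.6 kb at chr6:88940963-88971580, lay nearest to Tpra1.

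By gene, counting regions inside the body or within 50 kb of the start, genes with the most members included Gm20388 (38 of 165 Control regions), Lpp (17 of 66), Lpl (14 of 22), Rptor (13 of 24), Fgfr2 (13 of 59), Man1c1 (12 of 21) and Cask (12 of 22). The models of Gm20388 and Fgfr2 span 4435 and 2961 kb in this annotation, over other genes. Lpp encodes an adhesion protein, Rptor the scaffold of the kinase complex mTORC1 and Man1c1 a mannosidase of the Golgi.

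At Lpl, which encodes the lipoprotein lipase secreted by macrophages, the window from 50 kb before to 50 kb after the gene held 26 regions, 15 of them found in Control alone and 8 in all 4 lists. The Control list had a peak in 24 of the regions, IFNγ in 8, PJ34 in 11 and IFNγ+PJ34 in 9. The region over the Lpl start, chr8:68879609-68886896, stood at percentile 93.7 of the Control list and at 76.0, 83.4 and 83.4 of the IFNγ, PJ34 and IFNγ+PJ34 lists. The members around it were weak, with percentiles from 1.64 to 35.4 and fold enrichments from 2.48 to 3.97.

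At Apoe, which encodes the lipoprotein component apolipoprotein E, 7 of 16 regions in the same window were found in Control alone, 4 of them in the stretch chr7:19693082-19697833 that ends beside the Apoe promoter region. That promoter region, chr7:19697879-19701640, stood at percentile 78.1 of the Control list and at 6.60, 55.1 and 58.1 of the other lists in the same order. Members here had fold enrichments of 3.18 to 10.1.

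At Rasgrp3, 9 of 13 regions were members, and 1 was in all 4 lists. At Irf1, 3 of 16 regions were found in Control alone, and 9 had no Control peak. Apoe, Rasgrp3 and Irf1 were chosen for this count after values had been seen.

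The gene lists were chosen with earlier results of these data known, so the intervals describe them and test nothing. Over gene lists, the share of nearby Control regions found in Control alone was read against 17.0% for all Control regions. Around 25 genes of cholesterol and lipid handling it was 62 of 221 (28.1%, 22.2 to 34.5), and 18 of the genes had a member within 50 kb of a start site, where 28.8% of all protein-coding genes did. Among the lipid genes, after Lpl and Apoe came Lrp1 (6 of 19), a receptor that takes up lipoproteins, and Rxra (5 of 13), the partner of the oxysterol and fatty acid receptors. The strongest member at Rxra lay in an intron 13.8 kb from a start site (fold enrichment 10.0).

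Around 34 genes of the IFNγ response the share of regions was 14 of 180 (7.78%, 4.32 to 12.7). A member lay near 12 of the genes (35.3%, 19.7 to 53.5), against 28.8% of all protein-coding genes. The neighbouring genes Parp9, Parp14 and Dtx3l, shared the same strongest region (fold enrichment 4.47), and H2-Aa and H2-Ab1 another (3.84). Irf1 had 3 members of 7 Control regions. Of 27 genes of inflammatory cytokines and NF-κB, 18 (66.7%, 46.0 to 83.5) had a member, a share above the 28.8% of all genes. The share of regions around them was nevertheless 23 of 210 (10.95%, 7.07 to 16.0), with Ccl3 (3 of 14) and Tnf (3 of 16) holding the most.

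The remaining lists had intervals that took in 17.0%. Around macrophage identity genes it was 42 of 260 (16.2%, 11.9 to 21.2), with members at 18 of 28 genes, among them Cd14 (6 of 18), Lyz2 (6 of 13), which encodes lysozyme, Csf1r (3 of 19), the receptor of the growth factor M-CSF, and Cebpa (2 of 8). Around cell cycle genes it was 33 of 162 (20.4%, 14.5 to 27.4), led by Pcna (9 of 18), the clamp of DNA polymerases, E2f2 (5 of 13) and Ccnd3 (4 of 14), the last with a member at its promoter. The adjacent gene Tmem230 also counted 9 of 18, and the strongest member near Pcna lay nearest to a Tmem230 start site. Around PARP family and ADP-ribose hydrolase genes the share was 19 of 94 (20.2%, 12.6 to 29.8), led by Parg (5 of 9), which removes ADP-ribose chains. The strongest members near Parg and Cd14 lay nearest to start sites of Timm23 and E230025N22Rik. Actin and adhesion genes had 31 of 222 (14.0%, 9.69 to 19.2), with Dock8 (5 of 11) first, and alternative activation genes 16 of 128 (12.5%, 7.32 to 19.5), with Tgfb1 (5 of 14) first. Markers of other cell types had 21 of 126 (16.7%, 10.6 to 24.3), led by Cd79b, Ltf, Cebpe and Pecam1 with 3 each. By cell type they ran from 1 of 14 for erythroid and mast cells (7.14%, 0.181 to 33.9) to 9 of 32 for granulocytes (28.1%, 13.7 to 46.7).

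**Figure D4:**
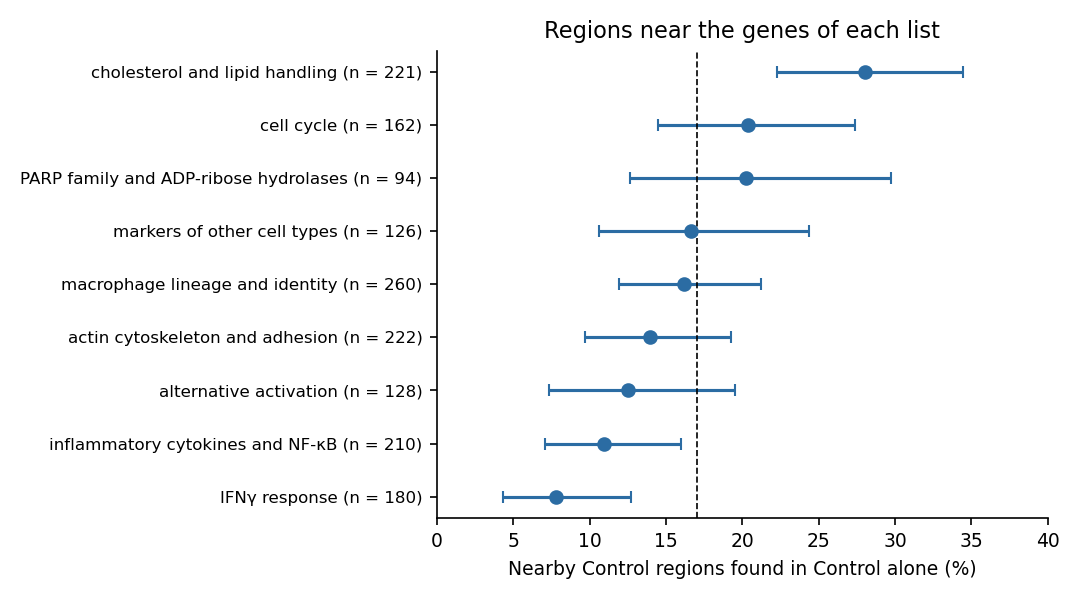
Share (%) of Control regions within 50 kb of a start site of each list's genes that were found in Control alone, with exact 95% intervals, n being the number of Control regions; the dashed line is the 17.0% of all Control regions. Lipid handling (28.1%) lies to the right of the line and the IFNγ response (7.78%) and inflammatory genes (10.95%) to its left. The lists were chosen with earlier results of these data known, so this is a description.

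Since weak regions are members more often, the shares were also taken over Control regions at or below the 50th percentile, a choice made after values had been seen. Against 35.1% of all such regions, lipid handling genes had 58 of 108 (53.7%, 43.9 to 63.4), IFNγ response genes 13 of 67 (19.4%, 10.8 to 30.9) and inflammatory genes 23 of 103 (22.3%, 14.7 to 31.6). A high share was not particular to lipid handling genes. Granulocyte markers had 9 of 14 (64.3%, 35.1 to 87.2) and PARP family genes 19 of 40 (47.5%, 31.5 to 63.9). Alternative activation genes had 16 of 65 (24.6%, 14.8 to 36.9). Members of a list cluster at a few genes, Lpl alone giving 14 of the 62 at lipid genes.

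In sequence, members had fewer matches to the elements of interferon signalling than distal regions in all 4 lists. Over the 200 bp around the summit, away from promoters, the ISRE matched 0.321 times per kb against 0.413, a ratio of 0.776 (0.689 to 0.874), and GAS 0.292 against 0.353, a ratio of 0.828 (0.729 to 0.939). The same letters in another order gave 0.949 (0.849 to 1.06) and 0.928 (0.805 to 1.07). At least 1 ISRE match stood in 6.10% of members and 7.63% of the regions in all 4 lists, and a GAS match in 5.70% and 6.83%.

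Against regions found in IFNγ alone the ISRE ratio was 0.799 (0.668 to 0.961), against PJ34 alone 0.810 (0.701 to 0.936) and against IFNγ+PJ34 alone 0.839 (0.730 to 0.965). For GAS the same ratios were 0.896 (0.736 to 1.10), 0.881 (0.755 to 1.03) and 0.872 (0.752 to 1.01), with intervals that include 1. The exchanged GAS letters were lower still against IFNγ alone, at 0.768 (0.625 to 0.948). Against Control regions shared with 1 or 2 other lists, ISRE was at 0.808 (0.699 to 0.936) and 0.802 (0.696 to 0.925). GAS was there at 0.883 (0.755 to 1.03) and 0.889 (0.763 to 1.04). Motif letters occur by chance in any sequence, and a match is not a bound site. Members and regions of other lists differ in GC content, and its part in these ratios was not tested.

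For the motifs of the lineage factors the ratio to regions in all 4 lists, over the same 200 bp, had intervals that include 1, at 0.883 (0.666 to 1.16) for PU.1, 0.968 (0.847 to 1.10) for AP-1 and 1.02 (0.907 to 1.14) for C/EBP. NF-κB was at 0.740 (0.491 to 1.09) from 37 matches in members, and its reversed letters at 0.742 (0.513 to 1.06). Over the whole region in place of 200 bp, all 6 motifs had ratios below 1: 0.759 (0.664 to 0.864) for PU.1, 0.746 (0.694 to 0.802) for AP-1, 0.926 (0.871 to 0.984) for C/EBP, 0.727 (0.578 to 0.904) for NF-κB, 0.796 (0.737 to 0.858) for GAS and 0.787 (0.734 to 0.843) for ISRE. The lower density was thus not particular to the interferon elements in that setting, where the rearranged letters, taken after values had been seen, had ratios from 0.875 to 1.06 and the reversed ISRE an interval below 1 (0.918, 0.860 to 0.978). Over 200 bp, matches stood in 1.27% (PU.1), 5.40% (AP-1), 7.46% (C/EBP) and 0.604% (NF-κB) of members and in 1.43%, 5.57%, 7.34% and 0.816% of the regions in all 4 lists. Against regions of single lists, AP-1 was at 0.753 (0.623 to 0.914) of IFNγ alone and 0.844 (0.722 to 0.988) of PJ34 alone, and C/EBP at 0.776 (0.685 to 0.877) of IFNγ+PJ34 alone. AP-1 was at 0.958 (0.817 to 1.12) of Control regions shared with 2 other lists and 0.852 (0.727 to 0.999) of those shared with 1. Against regions in all 4 lists at or below the 50th percentile, AP-1 was at 0.824 (0.688 to 0.989), an interval below 1. The permuted C/EBP letters were at 1.12 (1.02 to 1.22) of the regions in all 4 lists, an interval that also leaves out 1.

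**Figure D5:**
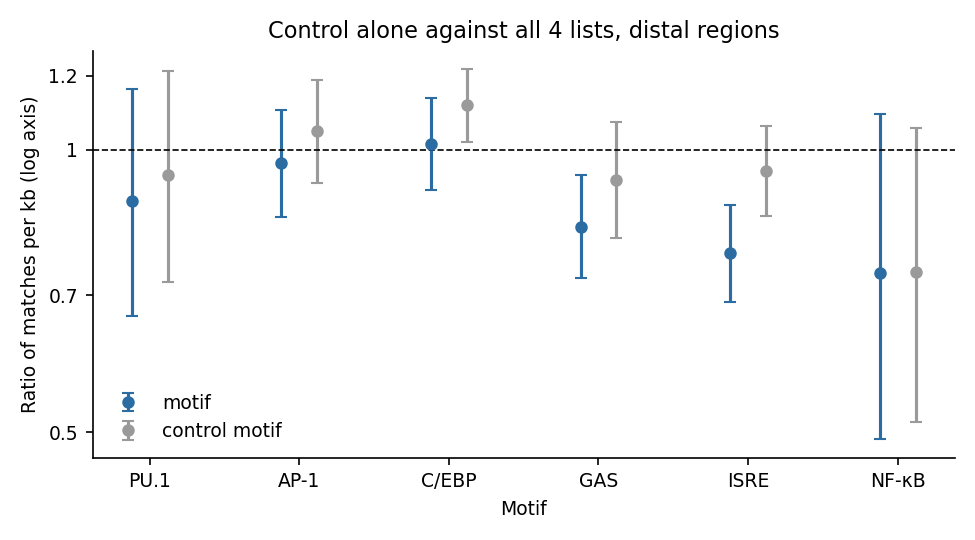
Ratio of motif matches per kb (log axis) in the 200 bp around the summit, distal regions found in Control alone over distal regions in all 4 lists, for 6 factor motifs (blue) and the same letters rearranged (grey), with exact 95% intervals; the dashed line is 1. ISRE (0.776) and GAS (0.828) have intervals below 1, and their rearranged letters (0.949 and 0.928) do not.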

How the data were processed

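H3K27ac ChIP-seq of 4 conditions was analysed from 1 peak list per condition. The authors aligned reads to mm10 with Bowtie, ran MACS on every replicate with input as background and a relaxed threshold of p 0.01, and kept peaks found in both replicates (from the study's methods); the submitters' processing notes name Bowtie and bedtools. The deposited lists hold a score, a ratio (fold enrichment over the local background), −log10 p and −log10 q values, and a summit offset in bp, as the authors' peak caller wrote them. No read count or depth is in these lists, and the input samples were used only through them. Groups were taken from the sample labels.

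Peaks sharing at least 1 bp were merged, and each region took the values of its best peak. All peaks lie within the chromosomes of GRCm38, whose sequence and soft-masked repeats were used. Start sites were 41525 of 21938 protein-coding genes of the basic set of the mouse GENCODE release M21. Shares have exact Clopper-Pearson 95% intervals and motif densities exact Poisson-ratio intervals. Of 13 gene lists (244 entries), 1 entry had no match. No test or p-value was computed. The members, gene lists and motifs were chosen with earlier results of these data known. Named regions were the 12 highest by −log10 p, the 5 widest and the 5 highest at promoters. Named genes were list genes with the most members within 50 kb, the 8 genes with the most members, and those of the 3 longest runs; a few of these are not reported here. The functions were tested on simulated lists and sequence. Python 3.11.15, numpy 2.4.6, pandas 2.3.3, scipy 1.17.1 and matplotlib 3.10.9 were used.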

Additional observations from a re-analysis of the deposited data

How the results depend on the processing

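No paired analysis was possible because the replicates of a condition share a single list, so no replicate could be left out either, and the depth of the libraries, not given in the lists, limits what an unlisted region means. Of 79 alternative values, 41 stayed within the interval or factor set for them, 38 moved, and the ratios of ISRE and GAS matches stayed below 1 in all settings run. The number of 6513 regions became 2602 with regions within 1 kb merged and 1861 when lists were reduced to their stronger 50%. Their share of Control regions became 9.61% and 9.09% there, 15.6% with lists of equal size and 14.8% at q under 0.001 in Control. Counted over the 43533 Control peaks, 6513 (15.0%) overlapped no other list, and 9601 (22.1%) had under 50% of their length covered by a peak of another list. The median percentile became 19.8 by fold enrichment and 16.9 with lists of equal size. The promoter share became 12.3% with a window of 2500 bp and 6.86% with any overlap, and that of regions in all 4 lists 49.1% and 48.3%, 47.4% with equal lists and 47.4% at q under 0.01. Within 5 kb and 10 kb of another list lay 69.4% and 79.7%, and within 1 kb 45.2% with equal lists. Around the summit, the median repeat-masked share became 12.0% and GC content 47.0%. By whole region AP-1 was at 0.746 (0.694 to 0.802), and the intervals of PU.1 (0.759, 0.664 to 0.864), C/EBP (0.926, 0.871 to 0.984) and NF-κB (0.727, 0.578 to 0.904) also fell below 1, so that all 6 motifs did, and against regions in the lower-scoring 50% AP-1 was at 0.824 and ISRE at 0.667. With 10 kb in place of 50 kb, the share of genes with a member became 9.58% for all genes, 39.3% for macrophage identity, 14.7% for the IFNγ response, 16.0% for the cell cycle, 48.0% for lipid handling, 0 for alternative activation, 25.9% for inflammatory, 11.1% for PARP family, 16.0% for actin and 7.32% for other cell type genes. With 100 kb it became 44.0% for all genes, 76.0% for the cell cycle, 80.0% for actin and 51.2% for other cell types, and with equal lists 26.3% for all genes. The cause of these shifts was not tested beyond what the settings themselves change.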
